A study of Mus musculus with 14 samples.

Results

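The insulin-like growth factor (IGF) axis was taken here as 9 of the 55335 genes in the count table, each matched by its gene symbol. They are the ligand Igf1, the receptors Igf1r and Igf2r, and the binding proteins Igfbp2, Igfbp3, Igfbp4, Igfbp5, Igfbp6 and Igfbp7. The members were chosen by the level of Igf1, which was far higher after CD45-targeted radioimmunotherapy than after external irradiation, with the receptors and binding proteins added by their family. That comparison is therefore given for all 9 genes as a description with no test, and Igf1 is tested only where neither of those groups is compared.

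RNA was sequenced from 14 libraries of sorted marrow cells that carried TdTomato and lacked CD45 and lineage markers. All mice carried a Cre driven by the Cdh5 promoter and a Rosa26 TdTomato reporter, which marks a cell in which the Cre was active together with its descendants. Marrow was harvested at day 8. The groups were 4 untreated libraries, 5 libraries after 500 cGy of total body irradiation from a caesium source (TBI), 3 after 20 µCi of non-targeted IgG radioimmunotherapy (IgG RIT) and 2 after 20 µCi of CD45-targeted radioimmunotherapy (CD45 RIT). The series title names astatine-211 as the radionuclide. TBI replicates are numbered 1, 3, 4, 5 and 6; a replicate 2 is not analysed here. The labels give no age and do not say whether each library came from its own mouse, so the p-values measure the spread between these libraries, which may be technical.

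Total counts ran from 16412779 to 31077588 per library. The 2 CD45 RIT libraries stood apart from each other, with a correlation of log2 levels of 0.673, against 0.906 to 0.979 for other pairs within a group, and they held 20994 and 17700 detected genes, against 21660 or more in the other libraries. TBI replicate 6 also differed from its group. Its correlation with the other TBI libraries was 0.911 to 0.923, against 0.956 to 0.979 among those libraries. Of 16 endothelial markers, 10 to 13 exceeded 3 counts in the untreated libraries, 8 to 12 in TBI, 6 to 9 in IgG RIT and 6 to 7 in CD45 RIT. Their summed level was 143 to 197 CPM (counts scaled to a common library size), 60.7 to 133, 60.0 to 69.1, and 83.0 and 263 in the same order. Pecam1 (894 to 1957 counts), Vwf (431 to 667), Eng (905 to 1003) and Tie1 (228 to 302) were present in all untreated libraries, and CD45 RIT replicate 2 held Kdr (2390), Flt4 (1306) and Esam (1004). Cdh5, whose promoter drives the Cre, had 0 to 6 counts in every library and 0 in all 5 radioimmunotherapy libraries, where Tek, Stab2 and Sox17 were also at 0. The 16 stromal markers (Cxcl12, Lepr, collagens and others) all exceeded 3 counts in every library, and their summed level was 3335 to 8371 CPM in untreated, 958 to 2264 in TBI, 408 to 1188 in IgG RIT and 41888 to 62124 in CD45 RIT. In each untreated library the neutrophil list (10278 to 12919 CPM) and the erythroid list (7813 to 14726 CPM) summed higher than the stromal list. The haematopoietic progenitor list, which includes Ptprc, the gene of CD45, summed to 1137 to 1649 CPM in untreated libraries. It summed to 64.6 to 470 in TBI, 68.9 to 120 in IgG RIT, and 17.7 and 52.8 in CD45 RIT. Since the stromal sum exceeded the endothelial sum in every library, the cells are called sorted marrow cells below.

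IGF1 is a secreted growth factor that signals through the tyrosine kinase receptor IGF1R, and in bone it is known for acting on osteoblasts. IGF2R, the cation-independent mannose-6-phosphate receptor, takes up IGF2 for degradation. The high-affinity IGF binding proteins hold the ligands in serum and matrix and set how much can reach the receptor, while IGFBP7 binds IGFs with low affinity.

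Igfbp4, Igfbp5 and Igfbp7 were the members called in both of the comparisons of TBI and of CD45 RIT with untreated cells, so the sequence before their start sites is shown, to set 3 genes that moved in the same directions beside one another. The sequences are RefSeq's for GRCm38.p6, read on the gene's strand and ended before any annotated exon. Capitals mark 4 motifs searched on both strands, which do not overlap in these sequences. One is the TATA box, TATAAA. Another is a variant of that box with a thymine-rich start, TTTAAA. The others are the box bound by nuclear factor Y, known as CCAAT, and the box bound by SP1 and related factors, GGGCGG. When the last of these lies on the reverse strand, the printed letters are its reverse complement. The regions are chr11:99040994-99041243 (plus strand) for Igfbp4, chr1:72874885-72875115 (minus strand) for Igfbp5 and chr5:77408046-77408295 (minus strand) for Igfbp7.
Igfbp4: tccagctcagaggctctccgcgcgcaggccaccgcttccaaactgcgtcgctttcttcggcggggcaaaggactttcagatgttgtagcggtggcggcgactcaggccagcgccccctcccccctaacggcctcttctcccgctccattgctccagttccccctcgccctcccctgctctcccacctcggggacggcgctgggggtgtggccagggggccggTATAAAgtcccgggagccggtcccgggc
Igfbp5: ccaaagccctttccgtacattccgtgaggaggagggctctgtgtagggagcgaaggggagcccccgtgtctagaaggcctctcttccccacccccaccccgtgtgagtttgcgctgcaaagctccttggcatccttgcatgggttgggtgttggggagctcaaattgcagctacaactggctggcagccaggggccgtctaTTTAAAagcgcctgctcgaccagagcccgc
Igfbp7: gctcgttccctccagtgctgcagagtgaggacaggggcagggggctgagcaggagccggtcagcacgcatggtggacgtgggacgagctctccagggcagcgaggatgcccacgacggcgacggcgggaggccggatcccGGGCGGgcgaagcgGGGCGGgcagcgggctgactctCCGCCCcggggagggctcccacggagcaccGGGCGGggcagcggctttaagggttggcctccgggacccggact

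The 3 sequences carried different letters. Igfbp4 had TATAAA at position -28 from its start site, a string found in 13.6% of 32851 promoter windows of 300 bases. Igfbp5 had TTTAAA at position -49, a string found in 13.2% of windows. Igfbp7 had neither, and held GGGCGG at positions -110, -96, -74 and -44, the one at -74 on the reverse strand; 35.7% of windows held that string. In the windows of 300 bases there were 27 CpG sites for Igfbp4, 10 for Igfbp5 and 33 for Igfbp7, against a median of 7 over all windows. These matches are a description of the letters only. All 9 genes had a window in the RefSeq table; the one for Igf1 lay within annotated exons and is not shown.

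**Figure D1:**
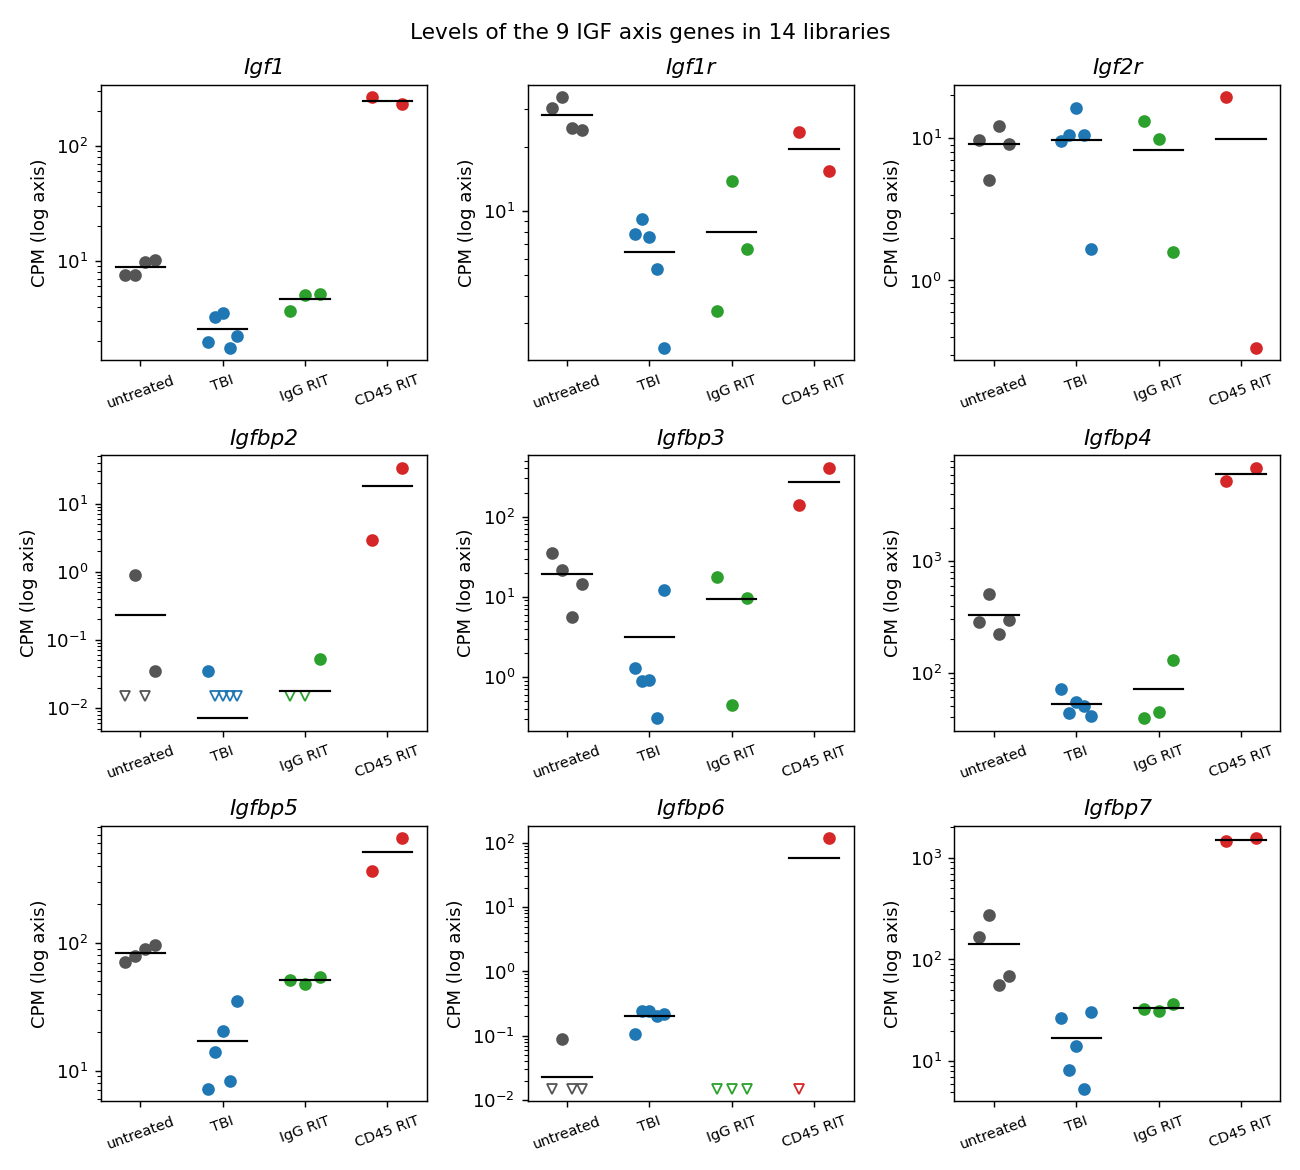
CPM of each of the 9 genes (log axis) in untreated, TBI, IgG RIT and CD45 RIT libraries; points are libraries, lines are group means, and open triangles are libraries with 0 counts, drawn at a fixed low height. Igf1 lay between 1.76 and 10.3 CPM in the 12 libraries of the other groups and at 229.7 and 263 CPM in CD45 RIT, whereas the values of Igf2r overlapped between all groups.

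Igf1 (chromosome 10, 87858265 to 87937042, plus strand, GRCm38) had 7.52, 7.54, 9.85 and 10.3 CPM in the untreated libraries. It had 1.98, 3.25, 3.53, 1.76 and 2.23 CPM in the TBI libraries. In IgG RIT the values were 3.71, 5.08 and 5.15 CPM, and in CD45 RIT 263 and 229.7 CPM. With the library scaling used here (TMM) the 4 groups occupied separate ranges, in the order TBI, IgG RIT, untreated and CD45 RIT. On total counts alone, IgG RIT (2.96 to 4.45 CPM) and TBI (1.89 to 3.85 CPM) overlapped. Of all tested genes, 12.8% were separated downwards from untreated cells in TBI and 17.5% upwards in CD45 RIT. CD45 RIT lay 96.5-fold above TBI, the comparison on which Igf1 was picked, and 28.0-fold above untreated cells, while TBI lay 3.44-fold below untreated cells.

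Although the spread was estimated from all 14 libraries, the comparison of IgG RIT with untreated cells set against each other neither group that picked Igf1. Its log2 fold change was -0.92 ± 0.30 (SE), and the adjusted p of edgeR's quasi-likelihood test with Benjamini-Hochberg adjustment was 0.0510, which did not pass the threshold of 0.05. Every IgG RIT library was below every untreated library, but 27.4% of all 21509 tested genes were separated in that direction. In 15 of 20 alternative fits Igf1 kept its direction and was again not called. The call stood near the threshold: the adjusted p was 0.0273 without CD45 RIT replicate 1, 0.0441 without TBI replicate 4, 0.0473 without TBI replicate 6, and 0.0343 in DESeq2, where the log2 fold change was -0.71.

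The stromal list, like Igf1, was highest in CD45 RIT and lower in TBI and IgG RIT than in untreated cells. Its range was lower in IgG RIT (408 to 1188 CPM) than in TBI (958 to 2264), with overlap. Sums of marker lists are scaled to total counts, without TMM factors. On that scale Igf1 also overlapped between IgG RIT (2.96 to 4.45 CPM) and TBI (1.89 to 3.85). These are bulk samples, in which fewer cells of a type and less RNA per cell cannot be told apart. Per 1000 counts of the stromal list, a measure chosen after the data were seen, Igf1 had 1.10 to 3.57 counts in untreated libraries and 1.04 to 3.95 in TBI. It had 2.49 to 10.9 in IgG RIT, and 4.42 and 2.86 in CD45 RIT. The 4 groups overlapped on this measure, unlike on CPM with TMM scaling. Per 1000 counts of Lepr, the leptin receptor of marrow stromal cells, Igf1 had 94.6 to 150 counts in untreated libraries, 52.5 to 302 in TBI, 113 to 121 in IgG RIT, and 159 and 126 in CD45 RIT. The osteoblast list summed to 1468 to 2977 CPM in untreated libraries, 385 to 692 in TBI, 502 to 836 in IgG RIT, and 11423 and 33626 in CD45 RIT. The part of these cell types in the Igf1 levels was not tested.

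The macrophage list summed to 161 to 185 CPM in untreated libraries, 115 to 135 in TBI, 105 to 134 in IgG RIT and 355 to 916 in CD45 RIT. In CD45 RIT 7 to 8 of its 15 genes exceeded 3 counts. Both of those libraries held counts of C1qb (303 and 1173), Cd68 (288 and 1495), Axl (536 and 903) and Slc40a1 (19625 and 5235). Slc40a1 alone made up most of the list's sum in both, so the higher sum there largely reflects 1 gene. Adgre1, Cd5l, Marco, Spic and Vsig4 were at 0 in both, and C1qa had 258 counts in one and 0 in the other. The erythroid list summed to 7813 to 14726 CPM in untreated libraries, 25233 to 175500 in TBI, 133169 to 141413 in IgG RIT and 47406 to 191558 in CD45 RIT. Within TBI, replicate 6 had 175500 CPM and the others at most 44140. The part of either list in the Igf1 levels was not tested. Igf1os, an antisense RNA of Igf1 whose reads cannot be told apart from those of the gene without strand, had 74 counts in untreated replicate 1 and 0 to 4 in the other libraries.

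The genes whose level was most like that of Igf1 over the 14 libraries were Lpl (Pearson's r = 0.983 of log2 CPM), Ogn (0.978), Eepd1 (0.978), Scp2 (0.978) and S1pr3 (0.973), of 8210 candidate genes. Lpl, lipoprotein lipase, averaged 7714 CPM in CD45 RIT, 116 in untreated cells, 56.5 in IgG RIT and 18.5 in TBI, and it is also on the stromal list. Over the 12 libraries without CD45 RIT the closest were Stmn1 (0.965), S1pr3 (0.953), Col8a1 (0.940), Runx2 (0.938) and Ogn (0.919). S1pr3, a sphingosine-1-phosphate receptor, and Ogn, the matrix proteoglycan osteoglycin, were on both lists. These values share libraries and depth and are descriptions.

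Among the receptors, Igf1r (chromosome 7, 67952827 to 68233668, plus strand) was lower after TBI and IgG RIT and not called after CD45 RIT. It had 30.3, 34.0, 24.3 and 23.9 CPM in untreated libraries and 7.79, 9.16, 7.59, 5.36 and 2.30 CPM in TBI. The IgG RIT libraries had 3.42, 13.8 and 6.68 CPM, and in CD45 RIT 23.5 and 15.3 CPM. Every TBI and IgG RIT library lay below every untreated library. Of all tested genes, 12.8% were separated in that way in TBI and 27.4% in IgG RIT. Igf1r fell by 2.12 ± 0.46 (SE) on the log2 scale after TBI (edgeR adjusted p = 0.0222) and by 1.82 ± 0.54 after IgG RIT (edgeR adjusted p = 0.0391). After CD45 RIT the difference was -0.53 ± 0.60, with an edgeR adjusted p of 0.499. The call in TBI was lost without TBI replicate 4 or 5 or untreated replicate 1 or 2 (adjusted p of 0.0501 to 0.0705). The call in IgG RIT was lost in 9 of the 14 fits that left out 1 library, namely IgG RIT 1 and 3, TBI 1, 4 and 5 and each untreated library (0.0514 to 0.129), and with RLE scaling factors (0.0538) or no count filter (0.0858).

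The neutrophil list also was lower in TBI and IgG RIT, at 89.1 to 1214 and 598 to 798 summed CPM against 10278 to 12919 in untreated libraries, and it was at 5.23 and 14.6 in CD45 RIT. Its part in the Igf1r levels was not tested.

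Igf1 and Igf1r parted in CD45 RIT. Per gene length, the level of Igf1 was 0.376 to 0.728 times that of Igf1r in untreated libraries, 0.432 to 1.64 in TBI and 0.624 to 1.84 in IgG RIT. In CD45 RIT the ratio was 19.0 and 25.4. Per 1000 stromal counts Igf1r had 3.88 to 8.82 counts in untreated libraries, 1.65 to 8.48 in TBI, 2.29 to 29.6 in IgG RIT, and 0.395 and 0.191 in CD45 RIT, the 2 lowest values of all 14 libraries. The ratio and the stromal measure both use the CD45 RIT level that picked Igf1 or a list chosen with results known, so neither was tested. The genes most like Igf1r over the 14 libraries were Lyz2 (r = 0.953), the lysozyme of myeloid cells, Map11 (0.914) and Gstm1 (0.900). Lyz2 averaged 74.8 CPM in untreated libraries, 20.0 in TBI, 21.9 in IgG RIT and 64.3 in CD45 RIT.

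Igf2r (chromosome 17, 12682406 to 12769664, minus strand) was not called in any comparison. It had 9.77, 5.09, 12.3 and 9.08 CPM in untreated libraries and 9.59, 10.5, 16.3, 10.6 and 1.65 in TBI. After IgG RIT the values were 13.2, 9.91 and 1.58 CPM, and in CD45 RIT 19.3 and 0.337 CPM. The CD45 RIT libraries held the highest and the lowest value of all 14, the latter from 7 counts. The log2 fold change from untreated cells was 0.11 in TBI (edgeR adjusted p = 0.978), -0.14 in IgG RIT (0.946) and 0.12 in CD45 RIT (0.946). Without CD45 RIT replicate 1 the value for CD45 RIT was -4.74 (edgeR adjusted p = 0.0191), so the group mean joins 2 unlike libraries. Airn, an antisense RNA of Igf2r, differed in the same sense, with 235 counts in the first CD45 RIT library and none in the second, and it had 506 over all libraries against 3206 for Igf2r. The r of Igf2r with each of the 7 other tested members, on the log2 CPM scale, was between -0.54 and 0.16 over the 14 libraries.

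**Figure D2:**
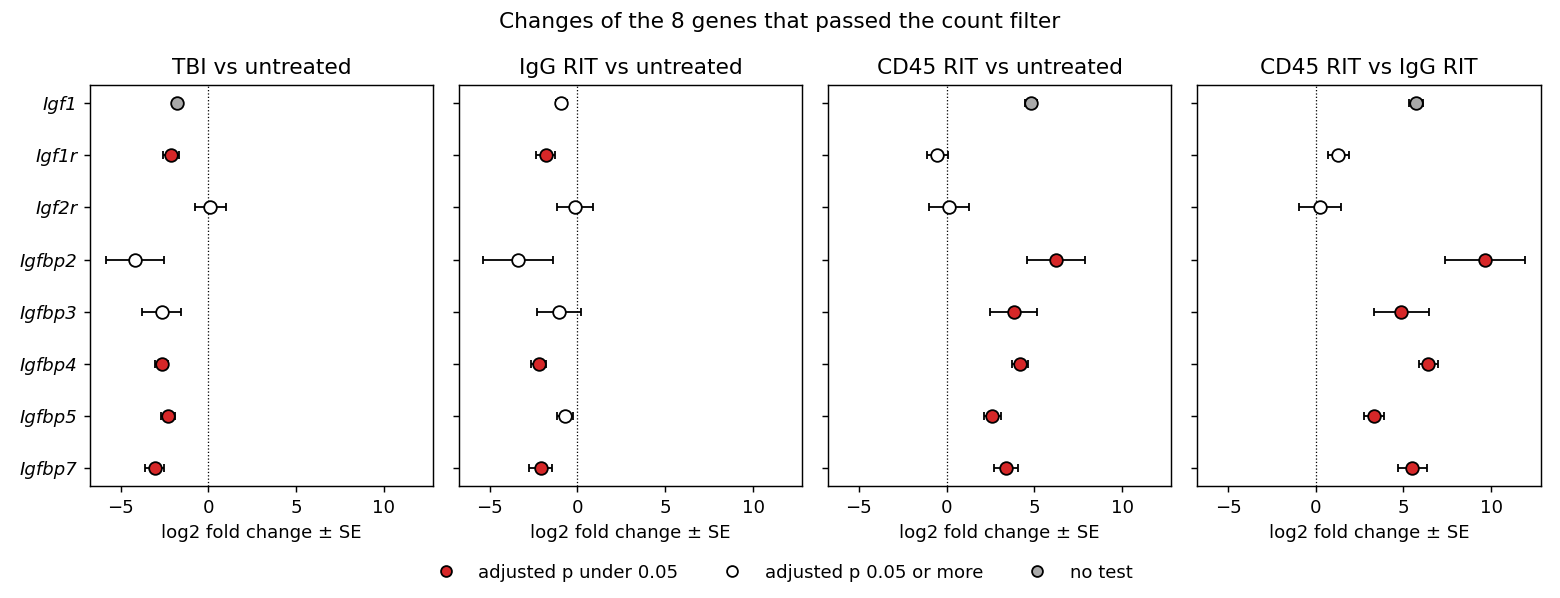
Log2 fold change (points) with its standard error (bars) of the 8 genes that passed the count filter, in 4 comparisons; red points passed the threshold, white points did not, and grey points were not tested. After TBI, Igf1r, Igfbp4, Igfbp5 and Igfbp7 lay below 0 and passed, and after CD45 RIT, Igfbp2, Igfbp3, Igfbp4, Igfbp5 and Igfbp7 lay above 0 and passed.

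Leaving out Igf1, 8 members remained, of which 7 passed the count filter and Igfbp6 did not. After CD45 RIT 5 of the 7 were called, all higher than in untreated cells, where 33.1% of all tested genes were called and 14.5% were called higher. After TBI 4 of the 7 were called, all lower, against a background of 4.31% called and 3.38% called lower. After IgG RIT 3 of the 7 were called, all lower, against 16.4% called and 10.7% called lower. Between CD45 RIT and IgG RIT 5 were called, all higher in CD45 RIT, where 37.7% of all tested genes were called and 20.2% were called higher. The first 3 comparisons share the untreated libraries, and the first and last share the CD45 RIT libraries. Both counts of 5 include Igfbp2, which passed the count filter only through the CD45 RIT libraries, where it was high. Its calls are therefore partly fixed by the filter and add no support. Without CD45 RIT replicate 2 the count after CD45 RIT was 3.

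Igfbp4 (chromosome 11, 99041244 to 99054392, plus strand), which binds IGFs and is cleaved by PAPP-A, was the binding protein with the most counts in CD45 RIT. It had 282, 507, 220 and 299.7 CPM in untreated libraries and 70.9, 43.2, 54.0, 50.0 and 41.1 CPM in TBI. The IgG RIT values were 38.9, 44.6 and 129 CPM, and in CD45 RIT 5232 and 6883 CPM. All TBI and IgG RIT libraries lay below the untreated ones and both CD45 RIT libraries above them. Of all tested genes, 12.8% were separated downwards in TBI, 27.4% downwards in IgG RIT and 17.5% upwards in CD45 RIT. The log2 fold change from untreated cells was -2.66 ± 0.36 in TBI (edgeR adjusted p = 0.00246), -2.21 ± 0.43 in IgG RIT (0.00670) and 4.21 ± 0.45 in CD45 RIT (4.63e-05). The rise after CD45 RIT was 18.5-fold. All 3 calls remained when any 1 library was left out.

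Igfbp7 (chromosome 5, 77349240 to 77408041, minus strand) is a secreted protein of vessels and stroma. It had 167, 277, 56.1 and 68.0 CPM in untreated libraries and 26.8, 8.23, 14.1, 5.36 and 30.6 CPM in TBI. In IgG RIT it had 32.4, 31.2 and 36.1 CPM, and in CD45 RIT 1466 and 1549 CPM. The groups were ordered as for Igfbp4, with no overlap with untreated cells. The shares of all tested genes so separated were 12.8% in TBI, 27.4% in IgG RIT and 17.5% in CD45 RIT. Its log2 fold change was -3.06 ± 0.56 in TBI (edgeR adjusted p = 0.0110), -2.09 ± 0.66 in IgG RIT (0.0474) and 3.41 ± 0.68 in CD45 RIT (0.00268). The IgG RIT call was lost in 8 of the 14 fits that left out 1 library, namely each IgG RIT library, TBI 1, 3 and 4 and untreated 1 and 2 (0.0516 to 0.132), and with RLE factors (0.0732) or no filter (0.0842); the other 2 calls remained in all 14. Polr2b overlaps Igfbp7 on the opposite strand, with 51617 counts over all libraries against 79253, and reads in the overlap cannot be assigned without strand.

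Igfbp5 (chromosome 1, 72857932 to 72874884, minus strand) binds IGFs and matrix components. It had 70.9, 78.6, 89.5 and 95.4 CPM in untreated libraries and 7.22, 14.04, 20.4, 8.34 and 34.96 CPM in TBI. In IgG RIT it had 51.3, 47.2 and 54.0 CPM, and in CD45 RIT 365 and 653 CPM. The IgG RIT libraries stood between those of TBI and untreated cells, with no overlap with either. Of all tested genes, 27.4% were separated downwards from untreated cells in IgG RIT and 12.8% in TBI. The log2 fold change was -2.30 ± 0.40 in TBI (edgeR adjusted p = 0.00829), -0.72 ± 0.46 in IgG RIT (0.296) and 2.61 ± 0.49 in CD45 RIT (0.00191). The calls in TBI and CD45 RIT remained when any 1 library was left out. In IgG RIT the adjusted p was 0.0403 without scaling factors, where the log2 fold change was -1.24, and 0.0460 in a fit on those 2 groups alone, where it was -0.43.

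Between IgG RIT and TBI no member was called by edgeR, where 0.242% of all tested genes were called and 3984 genes had an unadjusted p under 0.05. Igfbp5 was the only one of the 7 tested members with an unadjusted p under 0.05, with a log2 fold change of 1.58 ± 0.42 in IgG RIT over TBI and an edgeR adjusted p of 0.0948. DESeq2 called 1 member there, Igfbp5, at an adjusted p of 0.0183. Without TBI replicate 6, the TBI library with the most Igfbp5, the log2 fold change was 2.03 and the edgeR adjusted p 0.00514; the call was also made without CD45 RIT replicate 1 (0.0345) or replicate 2 (0.0383).

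Igfbp3 (chromosome 11, 7206086 to 7213923, minus strand), the main IGF carrier of serum, varied more within groups. It had 35.1, 21.8, 5.68 and 14.6 CPM in untreated libraries and 1.31, 0.899, 0.907, 0.305 and 12.1 CPM in TBI. Its IgG RIT values were 17.7, 0.448 and 9.67 CPM, and in CD45 RIT 139 and 406 CPM. The CD45 RIT libraries lay above all others, while TBI and IgG RIT overlapped untreated cells. Of all tested genes, 17.5% were separated upwards from untreated cells in CD45 RIT. Its change after CD45 RIT on the log2 scale was 3.82 ± 1.34 (edgeR adjusted p = 0.0449), and the call was lost in 9 of the 14 fits that left out 1 library (0.0513 to 0.179). These were CD45 RIT 2, IgG RIT 3, TBI 1, 3 and 4 and each untreated library. In TBI the value was -2.66 ± 1.10 (edgeR adjusted p = 0.214), and without TBI replicate 6 it was -4.49 (edgeR adjusted p = 0.0276). In IgG RIT it was -1.06 ± 1.24 (edgeR adjusted p = 0.591).

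Igfbp2 and Igfbp6, 2 further IGF binding proteins, were at or near the limit of detection outside CD45 RIT. Igfbp2 (chromosome 1, 72824503 to 72852474, plus strand) had 0, 30, 0 and 1 counts in untreated libraries, 0 or 1 in each TBI and IgG RIT library, and 48 and 695 counts in CD45 RIT. In CPM the CD45 RIT values were 2.93 and 33.4. Igfbp2 passed the count filter only through these libraries, so its calls for CD45 RIT are partly fixed by the filter. Its log2 fold change after CD45 RIT was 6.25 ± 1.64 over untreated cells (edgeR adjusted p = 0.0124), and without CD45 RIT replicate 2 it was 3.61 (edgeR adjusted p = 0.168). Over IgG RIT, in which all 3 libraries were at or under 3 counts, it was at least 113-fold higher, against that floor of 3 counts per library. This limit rests on CD45 RIT replicate 2: without it the value is at least 18.3-fold, and without replicate 1 at least 209-fold. The values in TBI (edgeR adjusted p = 0.197) and IgG RIT (0.254) did not pass the test. Igfbp6 (chromosome 15, 102144362 to 102149511, plus strand) had 0, 3, 0 and 0 counts in untreated libraries, 3 to 7 in TBI, 0 in each IgG RIT library, and 0 and 2435 in CD45 RIT. Its level in CD45 RIT replicate 2 was 117 CPM, so 1 library carries it and no fold is given. A count of 0 allows 0.0786 to 0.215 CPM, the value of 3 counts, depending on the library.

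The comparison that picked the members, CD45 RIT over TBI, is given as a description. The log2 fold change was 6.59 for Igf1, 1.59 for Igf1r and 0.01 for Igf2r. It was 6.48 for Igfbp3, 6.87 for Igfbp4, 4.91 for Igfbp5 and 6.47 for Igfbp7, and Igfbp2 was at least 136-fold higher. Without CD45 RIT replicate 2 the limit for Igfbp2 is 21.8-fold, and without replicate 1 it is 249.5-fold. In that comparison 38.6% of all tested genes were called.

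Per gene length, Igfbp4 and Igfbp7 had the highest levels of the 9 genes in every group, at 74.1 ± 28.3 and 118 ± 84.9 CPM per kb (SD, n = 4) in untreated cells. The other members of that group had 13.9 ± 1.83 (Igfbp5), 6.17 ± 3.98 (Igfbp3), 1.67 ± 0.290 (Igf1r), 0.972 ± 0.319 (Igf2r) and 0.888 ± 0.148 (Igf1) CPM per kb, with Igfbp2 and Igfbp6 near 0. Igfbp4 and Igfbp7 did not differ beyond their spread there, nor did Igf2r and Igf1. In CD45 RIT the levels were 1372 ± 264 (Igfbp4), 1247 ± 48.6 (Igfbp7), 87.1 ± 60.2 (Igfbp3) and 84.8 ± 33.8 (Igfbp5) CPM per kb (SD, n = 2). Igf1 had 24.9 ± 2.40 and Igf1r 1.16 ± 0.345 CPM per kb in the same libraries, so Igf1 stood above Igf1r in CD45 RIT and below it in untreated cells.

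**Figure D3:**
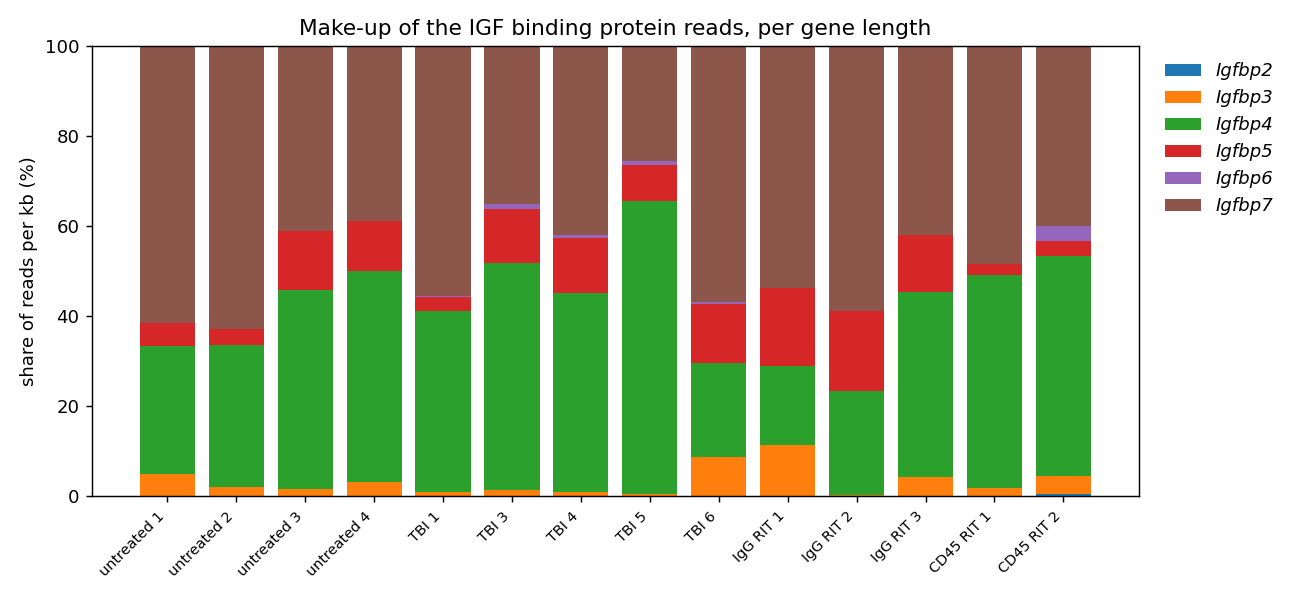
Share of each binding protein in the summed reads per kb of the 6 binding proteins (percent, linear axis), as 1 stacked bar per library. Igfbp4 and Igfbp7 together made up most of every bar, and the Igfbp5 band was thinnest in CD45 RIT and TBI replicate 1.

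The make-up of the binding protein reads was set by Igfbp7 and Igfbp4 in each group. Igfbp7 took 51.1% ± 12.8 of the reads per kb in untreated cells (SD, n = 4), 43.0% ± 13.4 in TBI (n = 5), 51.5% ± 8.67 in IgG RIT (n = 3) and 44.2% ± 5.94 in CD45 RIT (n = 2). Igfbp4 took 37.7% ± 9.17, 44.1% ± 16.0, 27.2% ± 12.3 and 48.0% ± 0.969 in the same order. These shares overlapped between untreated cells and each treated group, except that both CD45 RIT shares of Igfbp4, 47.3% and 48.7%, lay just above the highest untreated share of 46.9%. Igfbp5 took 2.43% and 3.39% in CD45 RIT, below the 3.59% to 13.2% of untreated cells and the 12.6% to 17.9% of IgG RIT. The TBI shares ran from 3.01% to 13.1%, so that 1 CD45 RIT library lay below them and the other within them.

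**Figure D4:**
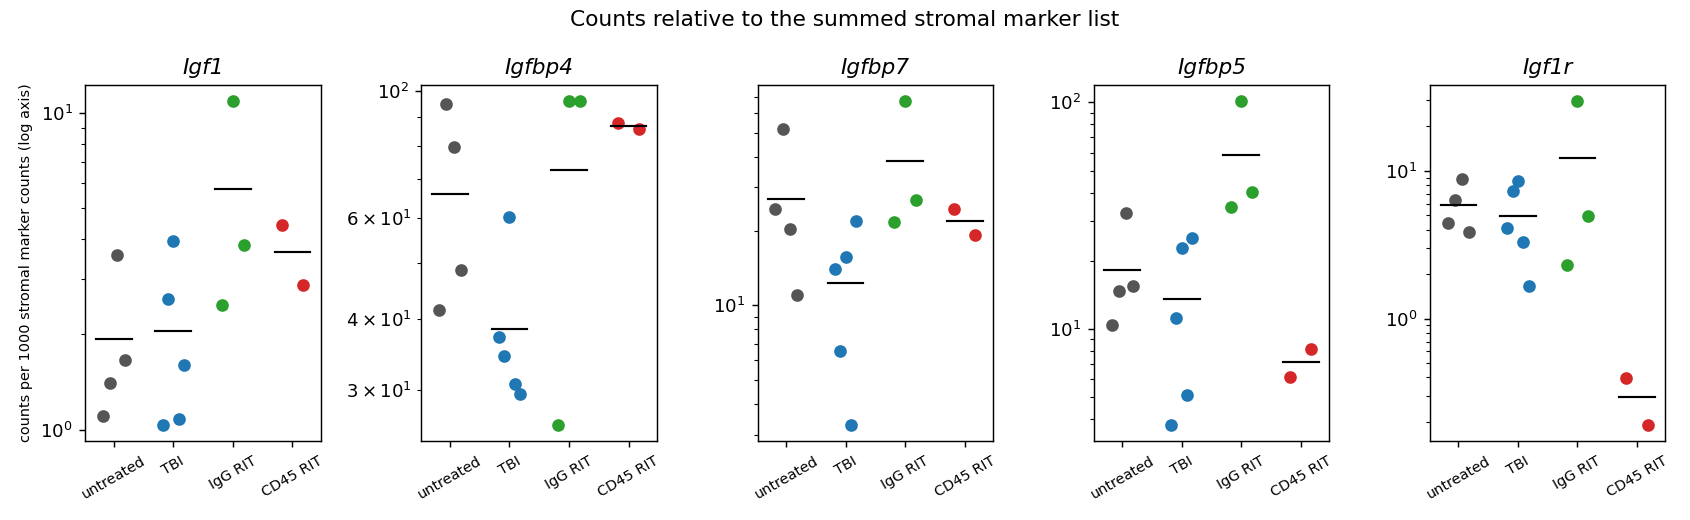
Counts of 5 genes per 1000 counts of the summed stromal marker list (log axes) in each library, by group; lines are group means. Igf1, Igfbp4 and Igfbp7 in CD45 RIT lay within the spread of other groups, whereas Igfbp5 and Igf1r in CD45 RIT lay below every untreated library.

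Set against the stromal list, the binding proteins parted in the same way. Igfbp4 had 87.8 and 85.9 counts per 1000 stromal counts in CD45 RIT, within the 41.4 to 94.7 of untreated libraries. Igfbp7 had 24.6 and 19.3, within the 11.0 to 51.6 of untreated libraries. Igfbp3 had 2.34 to 5.06, against 2.06 to 5.15. Igfbp5 had 6.14 and 8.14, below the 10.4 to 32.4 of untreated libraries, although its CPM was higher in CD45 RIT than in any other library. In IgG RIT Igfbp5 had 34.4 to 101, above every untreated library. Per 1000 Lepr counts, however, Igfbp5 overlapped between IgG RIT (1122 to 1560) and untreated libraries (880 to 1364). In CD45 RIT it had 221 and 357 on that measure, below every untreated library. These ratios were chosen after the data were seen and were not tested.

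**Figure D5:**
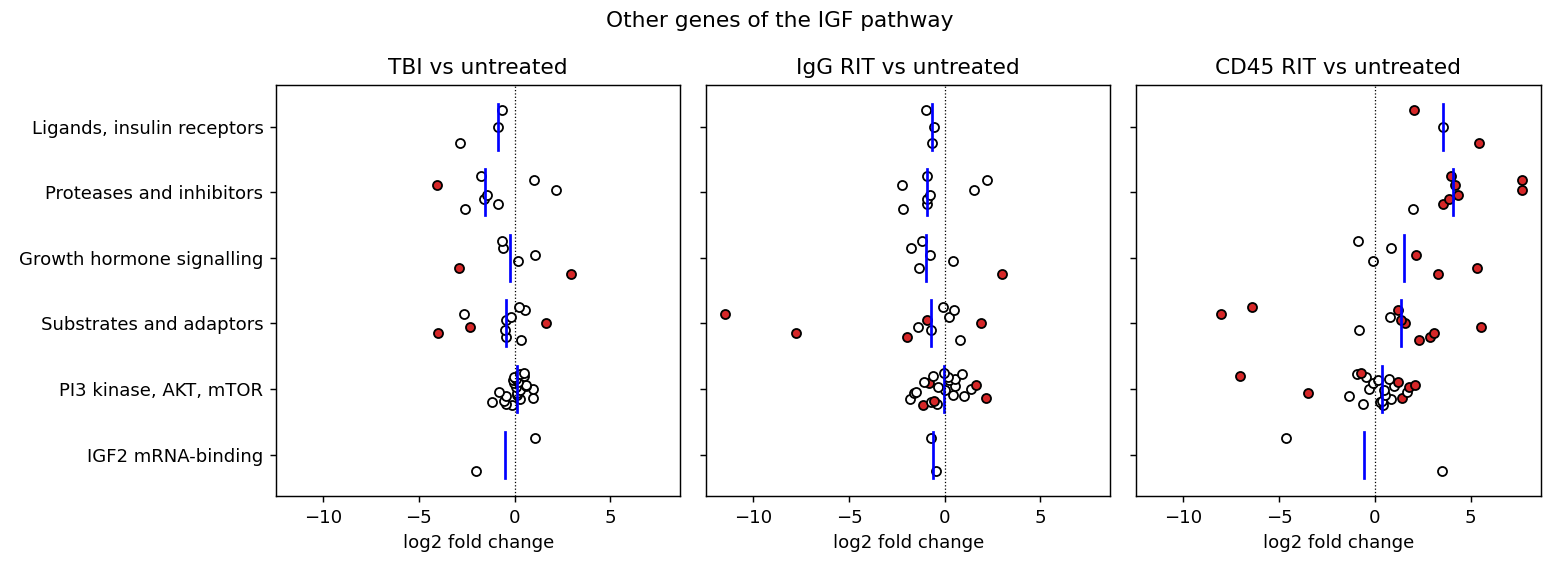
Log2 fold change of each tested gene of 6 pathway lists (rows) against untreated cells; red points passed the threshold, white points did not, and blue lines are list medians. In CD45 RIT 7 of 8 tested genes of the protease list lay above 0 and passed, and fitted values of genes with no counts in a group, such as Sh2b2 in IgG RIT, are not bounds.

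Another 64 genes of the pathway were followed in 6 lists, of which 53 passed the count filter. After CD45 RIT 28 of the 53 (52.8%) were called, 23 higher and 5 lower, against 33.1% of all tested genes, and the median log2 fold change was 1.198, against -0.37 over all tested genes. After TBI 6 (11.3%, against 4.31%) were called, 2 higher and 4 lower, with a median of -0.07 against -0.16. After IgG RIT 11 (20.8%, near the background of 16.4%) were called, 4 higher and 7 lower, with a median of -0.59 against -0.42. Between CD45 RIT and IgG RIT 23 (43.4%, near the background of 37.7%) were called, 20 higher and 3 lower. Between IgG RIT and TBI 1 was called, Sh2b2.

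The proteases that free IGFs from their binding proteins, with their inhibitors, held the highest share of calls after CD45 RIT, at 87.5%. In that comparison 7 of 8 tested genes rose, where 33.1% of all tested genes were called and 14.5% were called higher. Pappa, the protease that cleaves IGFBP4, had 11.7, 14.9, 3.47 and 11.7 CPM in untreated libraries and 205 and 176 CPM in CD45 RIT, where it rose by 4.19 ± 0.99 on the log2 scale (edgeR adjusted p = 0.00707). It fell by 4.02 ± 0.85 after TBI (edgeR adjusted p = 0.0211), with 0.138 to 1.22 CPM. Mmp2, a gelatinase, rose to 673 ± 64.5 CPM from 32.8 ± 17.6 (edgeR adjusted p = 1.38e-04). Stc2, an inhibitor of PAPP-A, and Mmp9 had the highest fitted values, 7.69 each (edgeR adjusted p = 0.0112 and 0.0318), but rested on CD45 RIT replicate 2, with 595 and 4508 counts against 1 and 3 in replicate 1. Timp3, also called, had 229 CPM in replicate 2 but 13.5 in replicate 1, within the 2.84 to 14.6 CPM of untreated libraries. The stromal list was also higher in CD45 RIT, and its part in these rises was not tested.

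Of the other ligands, Igf2 had 0 to 3 counts in every library outside CD45 RIT and 38 and 17 counts in CD45 RIT, at least 16.8-fold higher than in untreated cells against the floor of 3 counts per library (edgeR adjusted p = 0.0200). Without CD45 RIT replicate 1 that limit is 8.78-fold. Igf2 passed the count filter only through the CD45 RIT libraries, where it was high. Its p-value and its place among the pathway genes called higher in CD45 RIT are therefore partly fixed by the filter. Insr, the insulin receptor, rose by 2.04 ± 0.49 on the log2 scale (edgeR adjusted p = 0.00752), to 30.5 and 68.6 CPM from 9.95 to 14.7 CPM in untreated libraries.

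In growth hormone signalling, which drives Igf1 transcription in liver, the receptor gene Ghr had 16.5, 24.96, 24.3 and 17.8 CPM in untreated libraries and 832 and 831 CPM in CD45 RIT. It had 1.42 to 5.53 CPM in TBI and 6.08 to 10.4 CPM in IgG RIT, the same order of groups as Igf1. The log2 fold change was 5.32 ± 0.52 in CD45 RIT (edgeR adjusted p = 2.31e-05) and -2.92 ± 0.41 in TBI (0.00284). Cish, a STAT5-induced inhibitor of cytokine signalling, rose in all 3 treated groups, by 2.93 ± 0.44 in TBI (edgeR adjusted p = 0.00376), 2.98 ± 0.47 in IgG RIT (0.00285) and 3.32 ± 0.50 in CD45 RIT (4.73e-04). The erythroid list was also higher in all 3 groups, at 25233 CPM or more in each treated library against at most 14726 in untreated ones, and its part in the Cish levels was not tested. Socs2 had 62.8 ± 8.52 CPM in CD45 RIT against 8.18 ± 4.68 in IgG RIT (edgeR adjusted p = 0.00154).

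The receptor substrates split. Irs1, the insulin receptor substrate, had 3.50 to 5.58 CPM in untreated libraries, 0.373 to 1.67 in TBI and 98.4 and 289.6 in CD45 RIT. It fell by 2.32 ± 0.45 on the log2 scale in TBI (edgeR adjusted p = 0.0128) and rose by 5.54 ± 0.57 in CD45 RIT (edgeR adjusted p = 3.44e-05). Irs2, its relative, rose in all 3 treated groups, by 1.64 ± 0.25 in TBI (edgeR adjusted p = 0.00369), 1.88 ± 0.27 in IgG RIT (0.00209) and 1.59 ± 0.30 in CD45 RIT (0.00169). Grb14, an inhibitory adaptor of the insulin receptor, had 1.44 to 8.67 CPM in untreated libraries, 0 to 0.525 in TBI, and 50.9 and 35.2 in CD45 RIT. In IgG RIT it had 0, 1 and 0 counts, at least 30.96-fold lower than in untreated cells.

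Of the 9 genes of this list called after CD45 RIT, 7 were higher, and Sh2b2 and Sos1 were lower. Sh2b2, an adaptor of the insulin receptor, had 325 to 569 counts in untreated libraries, 0 in all 3 IgG RIT libraries and 0 and 2 in CD45 RIT. That is at least 91.0-fold lower in IgG RIT and at least 89.1-fold lower in CD45 RIT, against 3 counts per library. Sos1, the exchange factor that links receptors to RAS, had 4 and 1 counts in CD45 RIT against 252 to 471 in untreated libraries, a log2 fold change of -6.39 ± 0.70 (edgeR adjusted p = 4.46e-05), and was not called in the other treated groups.

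Of the 23 genes of PI3 kinase, AKT and mTOR signalling, 7 (30.4%) were called after CD45 RIT, 4 higher and 3 lower, and 5 (21.7%) after IgG RIT, 2 higher and 3 lower. These shares are near those of all tested genes, 33.1% and 16.4%. Rptor, the subunit that defines mTOR complex 1, had 7 and 4 counts in CD45 RIT against 978 to 1914 in untreated libraries, and fell by 7.01 ± 0.88 on the log2 scale (edgeR adjusted p = 1.33e-04). Pik3r1, a regulatory subunit of PI3 kinase, rose by 2.11 ± 0.35 in CD45 RIT (edgeR adjusted p = 8.89e-04) and by 1.66 ± 0.32 in IgG RIT (0.00642). Foxo3, a transcription factor that AKT restrains, rose by 2.14 ± 0.42 in IgG RIT (edgeR adjusted p = 0.00691) and by 1.41 ± 0.46 in CD45 RIT (0.0331). In TBI replicate 6 Pik3r1 (127 CPM) and Foxo3 (104 CPM) lay within the IgG RIT ranges of 117 to 183 and 94.7 to 116 CPM. The other TBI libraries had 45.3 to 68.1 and 28.7 to 36.9 CPM. Akt1 fell by 1.11 ± 0.32 in IgG RIT (edgeR adjusted p = 0.0350). The 2 tested genes of IGF2 mRNA-binding proteins did not pass: after CD45 RIT the log2 fold change was 3.52 ± 1.85 for Igf2bp2 (edgeR adjusted p = 0.154) and -4.63 ± 1.94 for Igf2bp3 (0.0841).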

How the data were processed

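RNA from 14 libraries of sorted mouse marrow cells was prepared with a SMART-Seq v4 kit and Nextera XT, per the labels' protocols; these use no molecular identifiers. The deposited values are raw counts per gene, with a gene length. The submitters' processing notes name STAR 2.7.7a, FastQC 0.11.9, edgeR 3.36.0 and build hg38, although the genes are mouse; the counter and strand setting are not given in the sources used here. Gene IDs matched GENCODE M21 (GRCm38) for 54587 of 55335 genes, all at the deposited position.

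Counts were tested with edgeR 4.0.16 (quasi-likelihood, TMM scaling, filterByExpr with a minimum count of 10 and total of 15, 1 coefficient per group over all 14 libraries) in R 4.3.3. This left 21509 genes, with Benjamini-Hochberg adjustment within each comparison and a threshold of 0.05. CPM are TMM-scaled, except that sums of marker lists are scaled to total counts. Levels between genes are CPM per kb of deposited length. Standard errors were derived from each fold change and its F statistic. The main test was run on simulated counts first. Alternatives were RLE or no scaling factors, no filter, DESeq2 1.42.0, a replicate block, fits on the 2 groups compared, and leaving out each library.

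All 9 members are named. Similar genes are the 5 highest Pearson correlations of log2 CPM (prior count 2) with Igf1 and the 3 highest with others, among protein-coding genes of mean log2 CPM 3 or more. Pathway genes named are, per list and comparison, up to 2 called genes with the largest rise and 2 with the largest fall. Timp3 is named in addition, because its call rested on 1 library. The members and lists were chosen with earlier results of these data known. Total counts of 16412779 to 31077588 per library make 3 counts worth 0.0786 to 0.215 CPM; this floor covers counting error only. No batch is named in the labels. Library numbers were 11 to 13 for IgG RIT, 15 and 16 for CD45 RIT, and 1 to 10 for untreated and TBI libraries. An effect of library order therefore cannot be told apart from radioimmunotherapy. TBI replicate 6 was library 10, next to the IgG RIT libraries. Its scaling factor was 0.849, against 0.798 to 0.876 in IgG RIT and 1.07 to 1.19 in the other TBI libraries. Its erythroid sum was 175500 CPM, against 133169 to 141413 in IgG RIT and at most 44140 in the other TBI libraries. Its Igf1, at 2.23 CPM, lay within the other TBI libraries (1.76 to 3.53). The part of library order was not tested.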

Additional observations from a re-analysis of the deposited data

Results flagged for a closer look

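Of 16 tests for a library far from the rest of its group, 3 were met, and chance flags about 1 in 20 such groups. Igfbp2 in untreated replicate 2 was at 0.898 CPM, from 30 counts, while the other untreated libraries were at 0 to 0.0347 CPM. Igfbp3 in TBI replicate 6 was at 12.1 CPM, while the other TBI libraries were at 0.305 to 1.31 CPM. Igfbp6 in TBI replicate 1 was at 0.106 CPM, from 3 counts, while the other TBI libraries were at 0.203 to 0.242 CPM.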

How the results depend on the processing

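Each member's change was refitted under up to 20 alternatives. After CD45 RIT, over untreated cells and over IgG RIT, Igfbp4, Igfbp5 and Igfbp7 kept direction and call in all 20. With RLE factors or no filter, 1 member and 7 pathway genes were called after IgG RIT. With no scaling factors 19 pathway genes were called after IgG RIT, and Igf1 passed there at -1.43; in DESeq2 it passed at -0.71. DESeq2 called 14 pathway genes after TBI, and 1 member and 7 pathway genes between IgG RIT and TBI. In fits on the 2 groups compared, the pathway counts were 13 after TBI, 20 after IgG RIT, 10 between CD45 RIT and IgG RIT, and 2 between IgG RIT and TBI.

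Under a replicate block, the members called were 3 after CD45 RIT, 1 after TBI, 0 after IgG RIT and 3 between CD45 RIT and IgG RIT, and the pathway genes called were 18 after CD45 RIT, 0 after TBI and 0 between IgG RIT and TBI. The numbers did not pair the samples: the 13 same-numbered pairs had a correlation of deviations of -0.09 to 0.139 (median 0.0225), with 1 over 0.1. The block reversed Igf2r after CD45 RIT (-0.54) and IgG RIT (0.0019) and between them (-0.55), and Igf1r (-0.36) and Igfbp2 (-1.15) between IgG RIT and TBI.

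After CD45 RIT, Igfbp3 also missed the threshold without scaling factors (adjusted p of 0.0635) or a filter (0.0678), and Igfbp2 in the fit on 2 groups (0.115). Between CD45 RIT and IgG RIT, Igfbp3 missed it in the fit on 2 groups (0.106), and Igf1r passed in DESeq2 (0.0440).

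Other reversals were in values that had not passed: Igf2r after IgG RIT with RLE factors (0.0631), in DESeq2 (0.0632) and in the fit on 2 groups (0.16); Igf2r after CD45 RIT (-0.65) and Igf1r between IgG RIT and TBI (-0.11) without scaling factors. Leaving out each library in turn, member counts ranged from 3 to 7 after CD45 RIT, 3 to 5 after TBI, 1 to 3 after IgG RIT, 4 to 7 between CD45 RIT and IgG RIT, and 0 to 2 between IgG RIT and TBI. Pathway counts ranged from 22 to 34, 4 to 11, 6 to 21, 19 to 34 and 0 to 9 in the same order. Igf1 after IgG RIT ranged from -0.997 to -0.73. Igf2r ranged from -4.74 to 1.05 after CD45 RIT, -0.16 to 0.38 after TBI, -0.65 to 0.36 after IgG RIT, -4.59 to 0.99 between CD45 RIT and IgG RIT, and -0.76 to 0.25 between IgG RIT and TBI. Igfbp2 ranged from -5.58 to 0.53 after IgG RIT and from -1.39 to 2.16 between IgG RIT and TBI, where Igf1r ranged from -0.35 to 0.67 and Igfbp4 from -0.31 to 0.75. The cause of these shifts was not tested.

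The median log2 fold change of all tested genes after CD45 RIT was -0.37 with TMM, -0.13 with RLE and -1.08 without scaling factors; after IgG RIT it was -0.42, -0.21 and -0.94. CPM on total counts were 0.70 to 1.21 times the group means given.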
